A study of Mus musculus with 54 samples.

Results

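Kidney RNA levels of 5 genes, Dpys, Bhmt, Aadat, Acsl1 and Nectin1, were described in male and female C57BL/6J mice at 50 and at 130 weeks of age, with liver as the contrast. They are 5 of the 55471 genes in the kidney count table, and all 5 were among the 17174 kidney genes that passed the filter on low counts. They were chosen because their change from 50 to 130 weeks differed between females and males in kidney, and they are the genes with the 5 smallest p-values of that difference. The kidney levels of the young and old mice, and the age changes made from them, are therefore given as a description with no test. In all 16 genes, or 0.0932%, passed the edgeR threshold for that difference, and the members are the 5 at its head. The last of these by p-value were Aadat (log2 difference 1.07) and Bhmt (-4.38), and the next genes, Vwa1 (1.78) and Cnnm1 (-1.28), also passed but are not members.

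The mice fell into 6 groups, each sex at 3 conditions, and no group carried a transgene or a deletion by the labels. Animals labelled Young were 50 weeks old, those labelled Old were 130 weeks old, and those labelled Corylin were 130 weeks old and were fed corylin, which is a plant flavonoid known from Psoralea corylifolia, in their diet for a long time. The study's design names a control diet for the animals without corylin, and the dose is not given in the sources used here. Poly(A) RNA of whole kidney, liver and quadriceps muscle was sequenced in 3 animals per group. For liver of corylin males only 2 of the 3 libraries were analysed. The total counts ran from 8687606 to 23190258 in the 18 kidney libraries and from 9031719 to 16610500 in the 17 liver libraries.

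The enzymes among them are ones that the proximal tubule of the kidney shares with the hepatocyte. Dpys encodes dihydropyrimidinase, which opens the ring of dihydrouracil and dihydrothymine in the breakdown of pyrimidine bases. Bhmt encodes betaine-homocysteine methyltransferase, which moves a methyl group from betaine to homocysteine and so gives back methionine. Aadat encodes an aminotransferase that turns kynurenine, from tryptophan, into kynurenic acid, and that also acts on aminoadipate in lysine breakdown. Acsl1 encodes a long-chain acyl-CoA synthetase, which activates fatty acids for oxidation or for lipid synthesis. Nectin1 is not an enzyme: it encodes an immunoglobulin-like adhesion molecule of adherens junctions. The mouse kidney is known for marked sex differences in proximal tubule transporters and enzymes, many of which respond to androgens.

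In the mouse build GRCm38 with the GENCODE M21 annotation, all 5 are protein-coding genes. Dpys (ENSMUSG00000022304) lies on the minus strand at chr15:39768487-39857470. Bhmt (ENSMUSG00000074768) lies on the minus strand at chr13:93616675-93637961, close to its relative Bhmt2 at chr13:93655720-93674302 on the same strand. Aadat (ENSMUSG00000057228) lies on the plus strand at chr8:60505932-60545677, Acsl1 (ENSMUSG00000018796) on the plus strand at chr8:46471037-46536051, and Nectin1 (ENSMUSG00000032012) on the plus strand at chr9:43743984-43807461. All of these except Aadat overlap an annotated gene on the opposite strand (Gm16291, Gm15622, Gm45244 and Gm30015 for Dpys, Bhmt, Acsl1 and Nectin1), and since the strand setting of the counting is not given in the sources used here, reads of these partners cannot be told apart from the members' own.

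RefSeq promoter windows of 300 bases (build GRCm38.p6) were at hand for 3 of the 5 genes, Bhmt, Aadat and Acsl1, and for Bhmt2. Bhmt, the gene with the widest age difference between the sexes, held the letters AGGTCA, to which many nuclear receptors bind, 3 times on its own strand, while the windows of Aadat, of both Acsl1 starts and of Bhmt2 held them on neither strand. Each match is shown with 12 bases on either side, from 5′ to 3′ on the minus strand and with the match in capitals, and is named by its position before the RefSeq start site.
Bhmt at -234, chr13:93637975-93638004: tgtgccagatgtAGGTCAtgcagtttacac
Bhmt at -72, chr13:93637813-93637842: gaccccagatcaAGGTCAgaggcctgctat
Bhmt at -47, chr13:93637788-93637817: gctattggacaaAGGTCAgtgtgcagacga
The windows at -72 and -47 overlap each other by a few bases and lie inside a longer Bhmt transcript of GENCODE M21. Of 32851 promoter windows of the same length, 16.3% held AGGTCA on either strand and 0.183% held it at least 3 times. The other motifs searched on both strands, AGAACA of the androgen receptor (19% of all windows), GTTAAT of HNF1 (7.1%) and TATAAA of the TATA box (13.6%), were in none of the 5 windows. A match is a description of the letters and not a binding site.

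Levels are given as CPM (counts scaled to a common library size, with TMM factors), and fold changes with their standard error (SE) come from edgeR's fit over all kidney libraries. Dpys was low in the kidneys of old females and high in those of old males. It stood at 22.5, 18.2 and 17.45 CPM in the 3 young females, at 1.27, 0.971 and 2.93 CPM in the 3 old females, and at 2.56, 10.96 and 9.51 CPM in the 3 corylin females. In males it stood at 39.6, 39.4 and 42.4 CPM at 50 weeks, at 45.1, 44.6 and 40.9 CPM at 130 weeks, and at 37.2, 50.0 and 34.6 CPM on corylin. Every old female was below every young female, and all 9 females were below all 9 males. The mean of young females was 19.4 ± 2.70 CPM (SD, n = 3) and that of old females 1.73 ± 1.06 CPM (SD, n = 3), which is a log2 difference of -3.45 ± 0.41 (SE), or 11-fold lower. Between the young and old males the log2 difference was 0.11 ± 0.33 (SE), and their ranges overlapped. The level in males was thus 2.09 times that in females at 50 weeks and 25.2 times at 130 weeks. In old females the level rests on 17 to 60 counts per library.

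Bhmt was higher in females than in males at 50 weeks and lower at 130 weeks. Its level was 74.2, 64.6 and 88.8 CPM in young females and 2.14, 7.54 and 5.96 CPM in old females, with 2.32, 16.8 and 14.1 CPM in corylin females. In males it was 13.9, 15.3 and 17.2 CPM at 50 weeks, 18.3, 24.7 and 23.7 CPM at 130 weeks, and 36.1, 38.9 and 20.1 CPM on corylin. Young females were above all 15 other kidney libraries, and old females were below all 9 males. From 50 to 130 weeks the log2 difference was -3.86 ± 0.51 (SE) in females, which is 14.5-fold lower, and 0.52 ± 0.46 (SE) in males. The female level was 4.91 times the male level at 50 weeks and 0.234 times at 130 weeks. Corylin females overlapped old females.

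The relatives of Bhmt bear on its counts. Bhmt1b, a retrotransposed near-copy, had counts that were 10.1% of those of Bhmt in the median kidney library (2.5 to 14.1%) and 9.44% in the median liver library (7.42 to 10.1%), and reads could have been split between the copies. It was itself among the 16 genes that passed the comparison that chose the members, so it too is given with no test. In kidney its log2 difference with age was -3.93 ± 0.60 (SE) in females and 0.53 ± 0.55 (SE) in males, and at 0.289 to 0.782 CPM in old females it was barely detected. Bhmt2, which makes methionine from S-methylmethionine and homocysteine, showed no such fall in females. It stood at 132 ± 13.8 CPM in young and 115 ± 33.3 CPM in old females (SD, n = 3 each), a log2 difference of -0.19 ± 0.19 (SE, edgeR adjusted p = 0.57). In males its log2 difference with age was -0.43 ± 0.19 (SE, edgeR adjusted p = 0.418). Per length, in the authors' TPM (a share of all transcripts, scaled for gene length), Bhmt2 was the more abundant of the pair in every kidney library, with 101.8 to 181.2 TPM against 1.12 to 40.3 TPM for Bhmt. The sum of the Bhmt and Bhmt2 counts had a log2 difference with age of -0.79 in females and -0.33 in males, where Bhmt alone was on the other side of 0, and the difference of these age effects was -0.45, against -4.38 for Bhmt alone. Most of the summed counts are those of Bhmt2, so the sum largely follows Bhmt2 and is no check of Bhmt.

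Aadat had the highest median level per length of the 5 genes in kidney, 725 TPM against 124 TPM for Acsl1, the next, and it was higher in females at every condition. Its level was 1084, 919 and 966 CPM in young females, 1252, 1033 and 1156 CPM in old females, and 1032, 1001 and 973 CPM in corylin females. In males it was 241, 241 and 268 CPM at 50 weeks, 141, 128 and 144 CPM at 130 weeks, and 124.5, 146 and 132 CPM on corylin. The 9 females did not overlap the 9 males, and young males were above all 6 older males. The age difference on the log2 scale was 0.21 ± 0.11 (SE) in females, whose ranges overlapped, and -0.86 ± 0.12 (SE) in males, a level 1.81-fold lower. Females therefore had 3.96 times the male level at 50 weeks, 8.32 times at 130 weeks and 7.47 times on corylin.

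Acsl1 was lower in old than in young females and higher in old than in young males. It stood at 623, 627 and 618 CPM in young females and at 370, 382 and 442 CPM in old females, against 494, 511 and 516 CPM in young males and 673, 681 and 757 CPM in old males. On corylin it stood at 430, 423 and 483 CPM in females and at 381, 444.5 and 445 CPM in males. Young and old animals did not overlap in either sex, and old males were above all other libraries. The log2 difference with age was -0.64 ± 0.11 (SE) in females and 0.47 ± 0.11 (SE) in males. Young females had 1.23 times the male level, old females 0.566 times.

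Nectin1 had the same order of young and old animals in each sex. Its level was 69.1, 64.3 and 73.1 CPM in young females, 44.3, 45.7 and 51.7 CPM in old females, and 52.3, 49.4 and 57.9 CPM in corylin females. In males it was 62.5, 62.2 and 51.7 CPM at 50 weeks, 95.4, 81.0 and 83.9 CPM at 130 weeks, and 47.4, 59.9 and 59.5 CPM on corylin. Old males were again above all other libraries, and young and old animals did not overlap in either sex. The log2 difference with age was -0.54 ± 0.12 (SE) in females and 0.56 ± 0.12 (SE) in males.

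Counted over the 5 genes, old and young females did not overlap in 4 (all but Aadat) and old and young males in 4 (all but Dpys). Over all 17174 genes this was so for 24.4% in females and 20.1% in males, and nothing is read from the members' counts because these libraries chose them. The difference of the age effects, females minus males on the log2 scale, was -4.38 ± 0.68 for Bhmt, -3.56 ± 0.53 for Dpys, -1.12 ± 0.16 for Acsl1, -1.10 ± 0.17 for Nectin1 and 1.07 ± 0.16 for Aadat (SE each). Among all tested genes its median was 0.03, and 0.0932% passed.

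**Figure D1:**
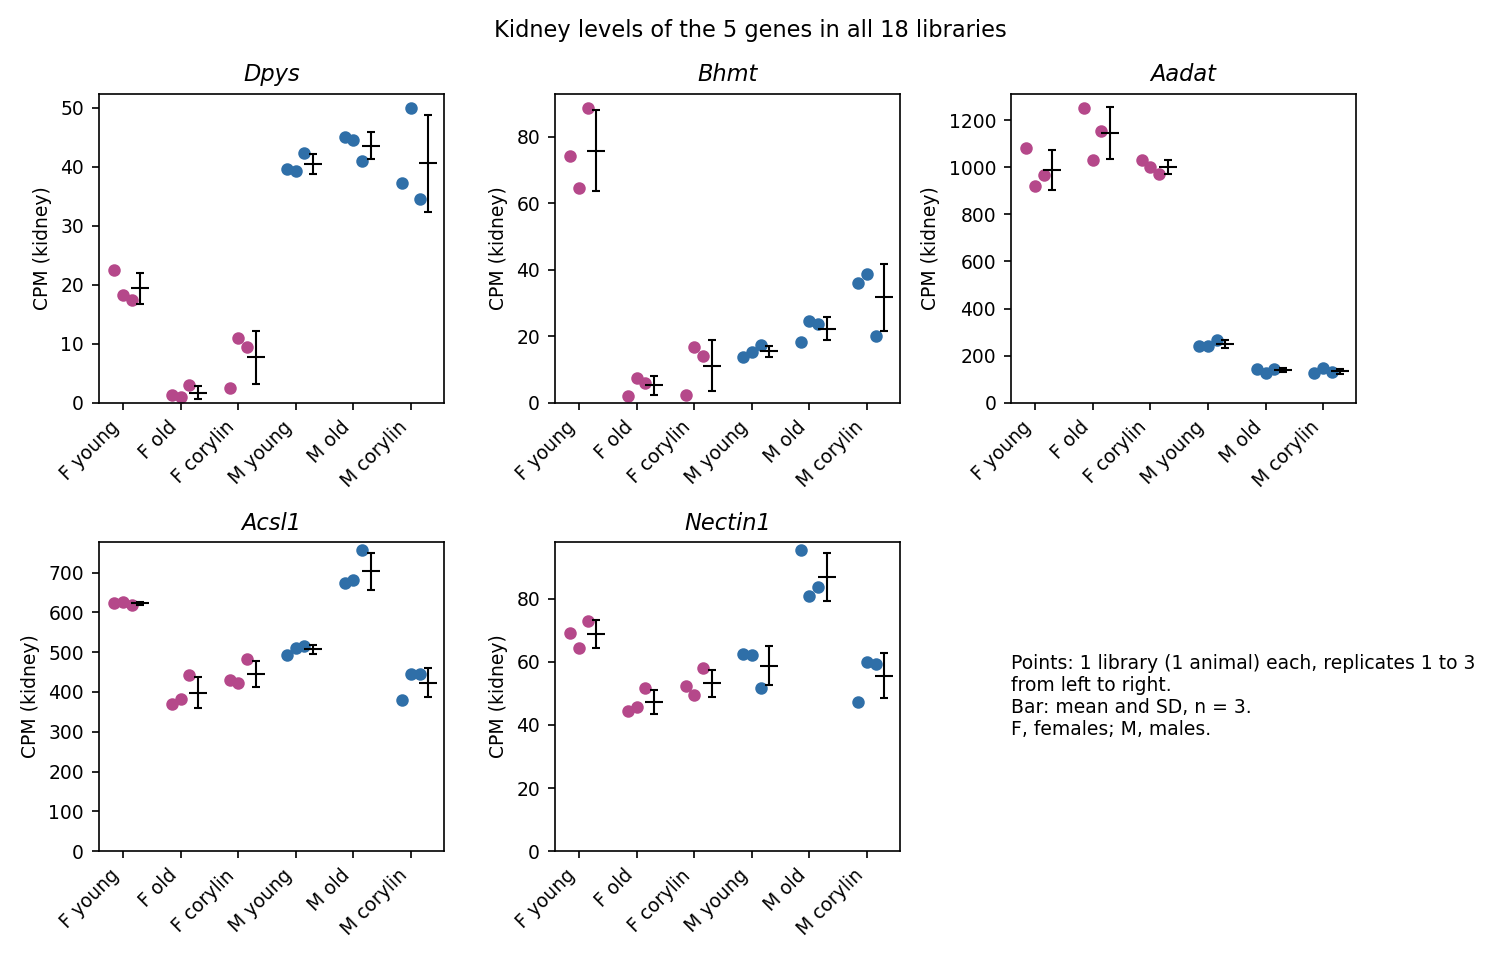
Kidney level of each gene in CPM (vertical axis, linear, from 0) in the 3 libraries of each of the 6 groups (horizontal axis; points, females in purple and males in blue), with the mean and SD beside them. Dpys and Bhmt are near 2 and 5 CPM in old females, Aadat separates all females from all males, and Acsl1 and Nectin1 are highest in old males.

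Corylin mice were compared with old mice of the same sex. The old libraries took part in choosing the genes, so these values too are given with no test. In females the log2 difference of corylin from old was 2.09 ± 0.42 for Dpys and 1.05 ± 0.50 for Bhmt (SE each), and the groups overlapped for both genes: corylin female 1, at 2.56 and 2.32 CPM, lay within the range of the old females. With 1 library left out at a time the difference ran from 1.76 (without corylin female 2) to 2.75 (without old female 3) for Dpys. For Bhmt it ran from 0.64 (without corylin female 2) and 0.69 (without old female 1) to 1.56 (without corylin female 1). The sum of Bhmt and Bhmt2 counts gave 0.13, but most of these counts are those of Bhmt2, which alone had 0.07 ± 0.19 (SE). For Aadat, Acsl1 and Nectin1 the differences in females were -0.19 ± 0.11, 0.16 ± 0.11 and 0.17 ± 0.12 (SE each). Corylin and old females were apart for Aadat only, as they were for 12.2% of all tested genes.

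Acsl1 and Nectin1, for which old males were above all other libraries, stood lower in males on corylin. Acsl1 averaged 424 ± 37.0 CPM in corylin and 703 ± 46.6 CPM in old males (SD, n = 3 each), a log2 difference of -0.73 ± 0.11 (SE). Nectin1 averaged 55.6 ± 7.11 and 86.8 ± 7.62 CPM (SD, n = 3 each), a log2 difference of -0.65 ± 0.12 (SE). The groups did not overlap for these 2 genes, as was the case for 16.5% of all genes tested. Dpys, Bhmt and Aadat had overlapping ranges in males, with log2 differences of -0.10 ± 0.33, 0.52 ± 0.46 and -0.04 ± 0.12 (SE each).

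The levels of the 6 corylin libraries did not enter the age difference that chose the genes, so females and males on corylin were tested. Both comparisons share the spread estimated over all kidney libraries, so these p-values are not fully independent of the choice. Aadat was higher in females by 2.90 ± 0.12 (SE) on the log2 scale, or 7.47-fold (edgeR adjusted p = 1.28e-10). Dpys was lower in females by a log2 difference of -2.43 ± 0.37 (SE), or 5.4-fold (edgeR adjusted p = 0.000419). Both calls held when any 1 of the 6 corylin libraries was left out. Bhmt was lower in all 3 females than in all 3 males, with a log2 difference of -1.55 ± 0.48 (SE), but did not pass (edgeR adjusted p = 0.0641). It passed with limma voom (limma adjusted p = 0.0221) and without corylin female 2 (edgeR adjusted p = 0.049), and it was furthest from passing without a filter on low counts (edgeR adjusted p = 0.226). In all 2 of 5 genes passed, 1 in each direction, where 6.73% of all tested genes did, 3.13% as higher and 3.6% as lower. The count of all genes that passed, 1156, was 583 without corylin female 1 and 598 without corylin male 2. The groups were apart for 3 of 5, where 28.4% of all tested genes were.

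Acsl1 and Nectin1 gave no detectable sex difference on corylin. The log2 difference of females from males was 0.07 for Acsl1 (95% interval -0.15 to 0.29, edgeR adjusted p = 0.768) and -0.06 for Nectin1 (95% interval -0.30 to 0.18, edgeR adjusted p = 0.828). In the old animals the same 2 genes had female levels at 0.566 and 0.544 times the male levels. These 2 pairs of groups were not set against each other in a test, because the old libraries chose the genes.

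Pathway neighbours of each gene came from lists made with earlier results of these data known. Among 9 other genes of pyrimidine degradation, in females with age, Abat and Aldh6a1, which work at or beyond the end of the pathway, fell by 0.71 ± 0.18 and 0.80 ± 0.22 (SE) on the log2 scale, and Upp1, a uridine phosphorylase, rose by 0.62 ± 0.19 (SE), with edgeR adjusted p of 0.0155, 0.0233 and 0.0405. The genes whose products act just before and just after Dpys, Dpyd and Upb1, did not pass (log2 differences of -0.57 ± 0.18 and -0.45 ± 0.20 SE, edgeR adjusted p = 0.0563 and 0.18). The list's median log2 difference was -0.57, beside 0 over all 17174 genes, of which 10.8% passed (7.69% as higher and 3.16% as lower). The count behind that share, 1863 genes, was 1057 without young female 2, 1034 without young female 3 and 1225 without old female 1. On corylin 3 of the 9 were lower in females than in males, Agxt2 and Dpyd among them with log2 differences of -1.32 ± 0.21 and -0.82 ± 0.19 (SE, edgeR adjusted p = 0.000563 and 0.0123).

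Around Bhmt, 4 of 18 genes of betaine, methionine and homocysteine metabolism fell with age in females and none rose. They were Cbs, which commits homocysteine to cysteine synthesis (log2 difference -1.28 ± 0.24 SE, edgeR adjusted p = 0.00289), Dmgdh, which oxidises the dimethylglycine that Bhmt produces (-0.81 ± 0.13 SE, edgeR adjusted p = 0.00076), and Aldh7a1 and Chdh, which make betaine from choline (-0.63 ± 0.16 and -0.60 ± 0.18 SE, edgeR adjusted p = 0.0193 and 0.0459). The median over the list was -0.32. Cbs and Aldh7a1 were also lower in females than in males on corylin (log2 differences of -1.41 and -0.60, edgeR adjusted p = 0.00164 and 0.0377).

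Around Aadat, 2 of 13 tested genes of kynurenine and lysine breakdown fell with age in females, Dhtkd1 by 1.45 ± 0.38 (SE) and Afmid by 0.92 ± 0.25 (SE) on the log2 scale (edgeR adjusted p = 0.0222 and 0.0245), and the list's median was -0.25. Tdo2 and Ido1, which start the pathway, were too low to test. On corylin 5 of the 13 were lower in females and 1 was higher. The gene that was higher was Kyat3, another kynurenine aminotransferase, by 1.26 ± 0.14 (SE) on the log2 scale (103.8 against 43.4 CPM, edgeR adjusted p = 1.89e-05). Qprt, which leads the pathway into NAD synthesis, was lower in females, with a log2 difference of -0.67 ± 0.14 (SE, edgeR adjusted p = 0.00672).

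Around Acsl1, 2 of 27 genes of fatty acid activation and oxidation rose and 3 fell with age in females, with a list median of -0.20. Cpt1a, which brings activated fatty acids into mitochondria, fell by 0.63 ± 0.15 (SE), Acsl3 by 0.45 ± 0.11 (SE) and the coactivator Ppargc1a by 0.69 ± 0.20 (SE), while the fatty acid carrier Fabp1 rose by 1.57 ± 0.40 (SE) and Acsl4 by 0.62 ± 0.19 (SE), all on the log2 scale (edgeR adjusted p of 0.00976, 0.0125, 0.0315, 0.0172 and 0.0459). The synthetases thus differed among themselves, with Acsl5 at 0.20 ± 0.13 (SE, edgeR adjusted p = 0.355) and Acsl6 near the detection limit. In corylin against old males Pdk4, a kinase that restrains glucose oxidation, was the gene of this list that passed, with 152.5 against 496 CPM and a log2 difference of -1.70 ± 0.22 (SE, edgeR adjusted p = 0.00583), where 0.0699% of all tested genes passed. On corylin 5 of the 27 were higher in females and 1 was lower, Fabp1 at 33.4 against 2.95 CPM and Acsl5 at 115.5 against 65.25 CPM among the former (edgeR adjusted p = 0.000151 and 0.000568).

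Around Nectin1, by edgeR none of 14 genes of nectins and epithelial adhesion passed with age in females, and the list's median was -0.06. Nectin2, Nectin3 and Nectin4 had log2 differences of 0.36 ± 0.15, -0.12 ± 0.10 and 0.05 ± 0.21 (SE each). On corylin Cdh6, a cadherin of the proximal tubule, was higher in females by 1.99 ± 0.26 (SE, edgeR adjusted p = 0.000109), and Cadm1 was lower by a log2 difference of -0.94 ± 0.23 (SE, edgeR adjusted p = 0.018). With age in males, where 0.111% of all tested genes passed, none of the genes of the 5 pathway lists did, and none passed for the sex difference of the age effect.

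**Figure D2:**
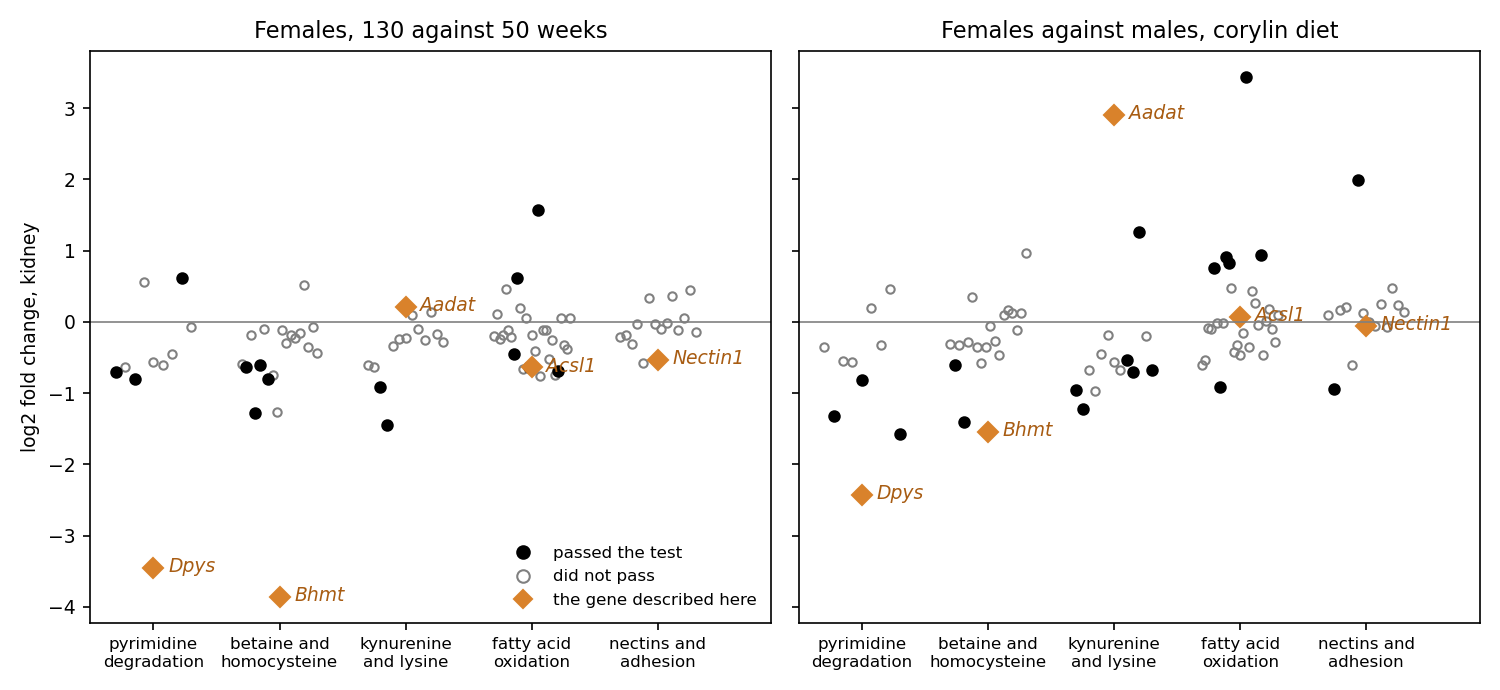
Kidney log2 fold changes (vertical axis) of the genes of each pathway list (horizontal axis) for old against young females (left) and for females against males on corylin (right); filled circles passed the edgeR test, open circles did not, and diamonds are Dpys, Bhmt, Aadat, Acsl1 and Nectin1. Dpys at -3.45 and Bhmt at -3.86 lie below all genes of their lists on the left, and Aadat at 2.90 lies above its list on the right.

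Other cell markers moved with age in the same female kidneys. All 12 macrophage markers rose in old females, C1qb by 2.64 and C1qa by 2.61 on the log2 scale (edgeR adjusted p = 8e-05 each), and so did 10 of 13 tubular injury markers, Krt20 by 3.17 and Cd44 by 2.18 (edgeR adjusted p = 0.000503 and 0.000733). The summed level of the injury markers was 1900 to 2250 CPM in young females, 11200, 7400 and 4220 CPM in old females 1, 2 and 3, and 7460, 3330 and 2870 CPM in corylin females 1, 2 and 3. It was 1090 to 1430 CPM in young, 1570 to 2540 CPM in old and 1530 to 2070 CPM in corylin males. The library with the highest injury sum had the lowest Bhmt of its group in both old and corylin females and the lowest Dpys in corylin females, while the lowest Dpys of old females was in female 2. The library with the lowest sum had the highest Dpys in old females (female 3), while the highest Bhmt of old females and the highest Dpys and Bhmt of corylin females were in female 2. Macrophage markers summed to 188 to 312 CPM in young females, 902 to 1290 CPM in old females and 394 to 617 CPM in corylin females. In young, old and corylin males these markers summed to 160 to 216, 332 to 455 and 203 to 461 CPM. Their part in the result was not tested. In males none of the marker lists had a gene that passed with age, except for 1 of the 8 hepatocyte markers. The median log2 difference with age was still 1.02 for injury and 1.11 for macrophage markers in males, against 2.08 and 2.62 in females. No gene of these lists passed for the sex difference of the age effect.

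Markers of the nephron were followed too. Of 20 proximal tubule markers 3 fell in old females, Slc6a19 by 1.24 and Slc34a3 by 1.03 on the log2 scale (edgeR adjusted p = 0.0114 and 0.0134), and the list summed to 12100 to 14900 CPM in young and 10500 to 13800 CPM in old females, which overlap. Of 17 markers of later segments 7 fell, Scnn1g by 0.46 and Calb1 by 1.16 (edgeR adjusted p = 0.00929 and 0.0172), with sums of 12200 to 14200 and 9180 to 12400 CPM. In whole tissue, fewer cells of a type and less RNA per cell cannot be told apart. Podocyte markers (2 of 5 rose, Synpo among them), endothelial markers (0 of 6 passed), T and B cell markers (1 of 10 rose, Cd3d) and adipocyte markers (2 of 6 tested rose, Lpl and Cidec, with a sum of 2500 CPM in old female 2 against 442 and 1080 CPM in old females 3 and 1) were also followed. In males the proximal tubule markers summed to 19400 to 24200 CPM in young and 13600 to 19600 CPM in old animals, which overlap. Their median log2 difference with age was -0.30 in males and -0.18 in females. The markers of later segments summed to 9360 to 10900 CPM in young and 10200 to 10900 CPM in old males. No marker of any list was at 0 in all kidney libraries.

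Among 5 genes known to respond to androgen in mouse kidney, Gusb and Odc1 rose in old females by 0.65 and 0.56 on the log2 scale (edgeR adjusted p = 0.00552 and 0.0418), and Kap fell in corylin against old females by 2.21 (edgeR adjusted p = 0.0039), where 0.0582% of all tested genes passed. Their sum was 5620 to 8000 CPM in young females, 6180 to 11500 CPM in old females and 2290 to 2760 CPM in corylin females, and 25100 to 30800, 9840 to 16200 and 9390 to 16400 CPM in young, old and corylin males. Hepatocyte markers were looked at because Bhmt and Dpys are liver genes. Albumin ran from 5.66 to 21.6 CPM in kidney and from 34300 to 87600 CPM in liver, and of the 8 markers Alb fell in old female kidneys by 1.04 on the log2 scale (edgeR adjusted p = 0.0147), from a mean of 15.5 to 7.54 CPM, while 2 rose, Serpina1a by 1.61 among them (edgeR adjusted p = 0.0044). Between females and males on corylin, 5 of 20 proximal tubule markers were lower and 1 was higher in females, with sums of 10600 to 11900 CPM in females and 15000 to 19000 CPM in males. In the same comparison 3 of the 5 androgen-responsive genes were lower and 3 of 10 T and B cell markers were higher, and the part of these lists in the differences of Dpys, Bhmt and Aadat was not tested.

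Over the 18 kidney libraries the gene most like Dpys by Pearson correlation of log2 CPM, among 12486 candidates, was Slc1a2, a glutamate transporter (r = 0.976), followed by Pde4c (0.957) and Pm20d1 (0.951). Those most like Bhmt were Igfbp1, Adk and Cpn1 (0.84, 0.84 and 0.838). Its near-copy Bhmt1b, too low on average to be a candidate, correlated with it at 0.951. Aadat was most like Kyat3, Xist and Steap3 (0.974, 0.974 and 0.971), and Xist is the X-inactivation RNA of female cells, and all 9 females were above all 9 males for Aadat. Acsl1 and Nectin1 were each other's closest gene (0.922), with Wdr91 next for both (0.825 and 0.854). Taken as deviations from the 6 group means, Dpys and Bhmt correlated at 0.71 and Acsl1 and Nectin1 at 0.546, and the closest genes were Reep6 for Bhmt (0.916), Slc11a2 for Aadat (0.826), Lrrc66 for Acsl1 (0.875) and Fam169b for Nectin1 (0.893). Group and depth differ between these libraries, and their part in the correlations, like that of RNA quality, was not tested. The values carry no test.

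Across tissues, levels were set side by side in the authors' TPM, which are per length but were made for each tissue's table on its own. Bhmt was a liver gene, with 149.9 to 3649 TPM in liver, and its mean was 61.3 times the kidney mean in young females and 202 times in old females. Dpys was likewise higher in liver, by 13.1 times in young females, 62.1 times in old females and 4.29 times in old males. Aadat was higher in kidney, by 12.4 times in young females, 29.7 times in old females and 1.76 times in old males. Acsl1 and Nectin1 were of the same order in both organs, with liver over kidney ratios between 1.06 and 4.84 for Acsl1 and between 0.659 and 1.51 for Nectin1. In quadriceps Dpys and Aadat gave at most 3 and 8 counts in a library and Bhmt at most 32, Nectin1 had 0.334 to 2.14 TPM, and Acsl1 had 60.5 to 234 TPM.

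**Figure D3:**
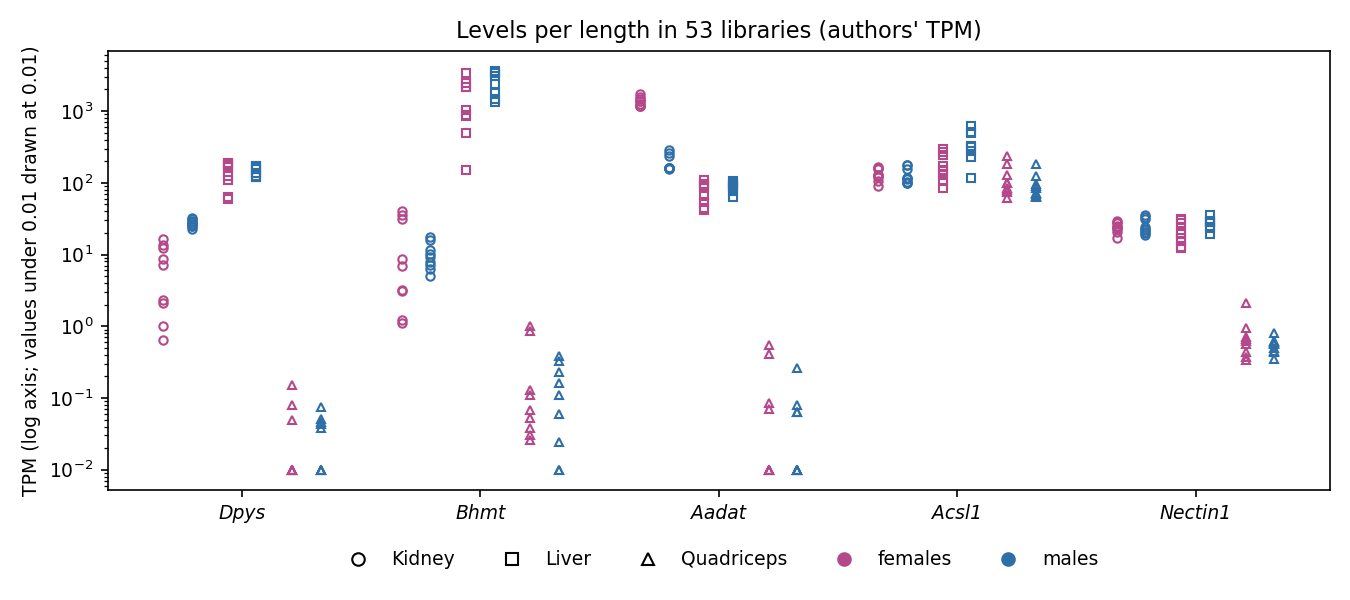
Level per length of each gene in the authors' TPM (vertical axis, log scale, with values under 0.01 drawn at 0.01) in all 53 libraries, by tissue (symbols) and sex (colours). Bhmt and Dpys are highest in liver, Aadat in female kidney, and Acsl1 is of one order of magnitude in all tissues.

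The liver libraries had no part in choosing the genes, so the age changes could be tested there, but by their names they come from the same animals whose kidneys chose the genes and are not independent of them. In liver of females 4 of the 5 genes fell with age, where 9.27% of all 15158 tested genes passed, 5.54% as higher and 3.73% as lower. The count of all genes that passed, 1405, was 256 to 354 without any 1 young female or without old female 2, and 697 without old female 1. Nectin1 stood at 82.2, 85.2 and 75.8 CPM in young and at 36.6, 45.6 and 37.1 CPM in old females, a fall of 1.03 ± 0.16 (SE) on the log2 scale (edgeR adjusted p = 0.0045), and this call held when any 1 library was left out. Dpys stood at 282, 282 and 293 CPM in young and at 106, 101 and 213 CPM in old females, a fall of 1.03 ± 0.27 (SE, edgeR adjusted p = 0.0322). In neither gene did the groups overlap.

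Acsl1 in female liver stood at 1234, 1193 and 1098 CPM at 50 weeks and at 703, 509 and 398 CPM at 130 weeks, and it fell by 1.13 ± 0.32 (SE) on the log2 scale (edgeR adjusted p = 0.0396). Aadat stood at 95.7, 83.5 and 90.0 CPM and at 42.9, 42.0 and 63.8 CPM, and fell by 0.86 ± 0.24 (SE, edgeR adjusted p = 0.0408). These 2 calls and that of Dpys were near the threshold. With a library left out, the edgeR adjusted p of Acsl1 was 0.0508 to 0.132 in all 6 fits, and Dpys and Aadat passed only without old female 3, with 0.0811 to 0.125 and 0.0957 to 0.146 in the other 5 fits. Old female 3 had the highest Dpys and Aadat of the old females, as it had the highest Dpys of the old female kidneys. Its library names carry the letter R, of no stated meaning, where those of the other old females carry B.

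Bhmt varied most between livers. It stood at 7702, 2558 and 5252 CPM in young females and at 383, 1278 and 2259 CPM in old females, and the log2 difference of -1.98 ± 0.63 (SE) did not pass (edgeR adjusted p = 0.063), though the groups were apart. DESeq2 called it (adjusted p = 0.00698), and so did edgeR without old female 3 (log2 difference -2.61, adjusted p = 0.0352). In the authors' deposited table its log2 fold change was -1.59 with an adjusted p of 0.00727. Over the 5 genes old and young females were apart in all 5, as 36.1% of all tested liver genes were.

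By edgeR none of the 5 genes passed in liver of males, where 0.211% of all tested genes did. Acsl1 stood at 2758, 2267 and 2360 CPM in young and at 1280, 984 and 1211 CPM in old males, a log2 difference of -1.09 ± 0.32 (SE, edgeR adjusted p = 0.109, DESeq2 adjusted p = 0.0186). The log2 differences of Dpys, Nectin1 and Aadat were -0.59 ± 0.27, -0.38 ± 0.15 and -0.21 ± 0.24 (SE), with old below young males in every library of these genes, and that of Bhmt was 0.20 ± 0.61 (SE). Old and young males were apart for 4 of the 5, as they were for 30.5% of all tested genes.

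Of the pathway lists in female liver, 2 of 9 genes of pyrimidine degradation, 2 of 18 around betaine and methionine and 7 of 25 of fatty acid metabolism fell with age, and 1 of the last list rose. Of 14 around kynurenine 2 rose and 1 fell, and of 13 of nectins and adhesion 1 rose and 2 fell. None of these pathway genes passed in male liver.

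The liver age effects could not be shown to differ between the sexes for any of the 5 genes. The difference, females minus males on the log2 scale, was -2.18 ± 0.87 (SE) for Bhmt (edgeR adjusted p = 0.49), -0.65 ± 0.22 (SE) for Nectin1 (edgeR adjusted p = 0.37), -0.65 ± 0.34 (SE) for Aadat (edgeR adjusted p = 0.644), -0.44 ± 0.38 (SE) for Dpys (edgeR adjusted p = 0.827) and -0.04 ± 0.44 (SE) for Acsl1 (edgeR adjusted p = 0.996). The 95% intervals of these differences ran from -3.89 to -0.47 for Bhmt, from -1.18 to 0.30 for Dpys, from -1.32 to 0.02 for Aadat, from -0.90 to 0.82 for Acsl1 and from -1.08 to -0.22 for Nectin1. Kidney and liver were not set against each other in a test, because the kidney values chose the genes. By edgeR 0 of 15158 genes passed this comparison, with 1307 at an unadjusted p under 0.05, while DESeq2 called 133 and limma voom 0.

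**Figure D4:**
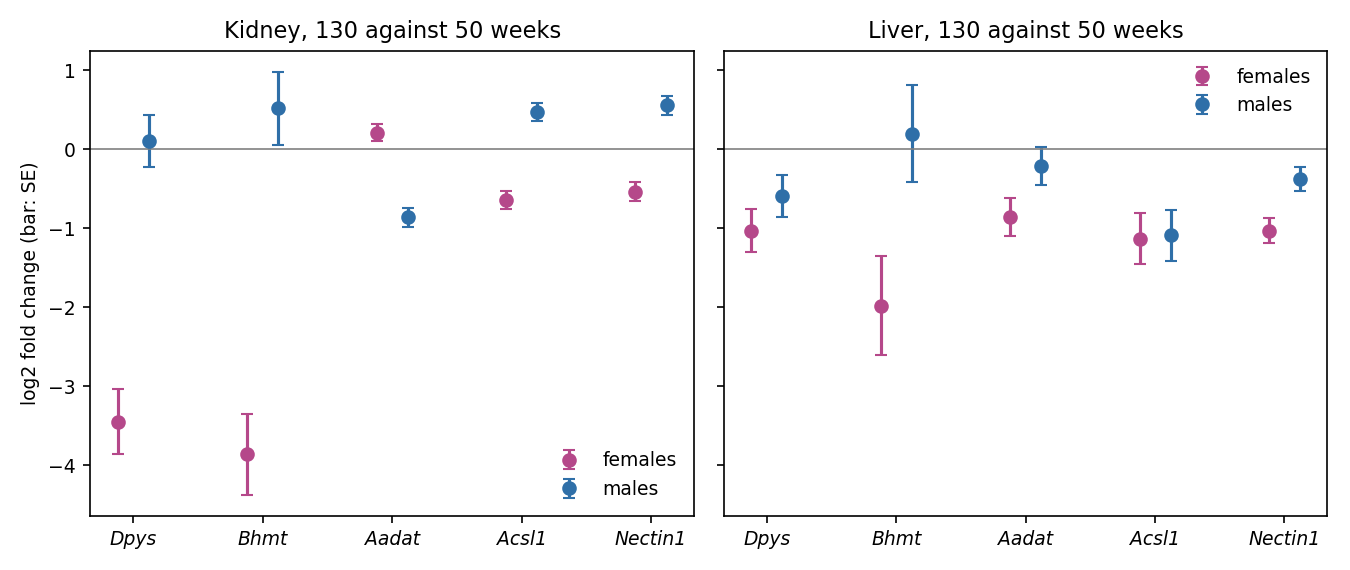
Log2 fold change from 50 to 130 weeks (vertical axis, bars are the SE) of each gene in kidney (left) and liver (right), for females (purple) and males (blue). In kidney the estimates of the sexes lie on opposite sides of 0 for all 5 genes. Those of Dpys and Bhmt in males (0.11 ± 0.33 and 0.52 ± 0.46 SE) are near 0 beside their SE. That of Aadat in females (0.21 ± 0.11 SE) is small, and the ranges of young and old females overlapped. In liver only Bhmt has a positive estimate in males, of 0.20 ± 0.61 (SE).

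By edgeR none of the 5 genes passed in liver between corylin and old mice in either sex, where 0.152% of tested genes passed in females and 0.0594% in males. Bhmt in corylin females stood at 2014, 5378 and 4460 CPM, a log2 difference from old females of 1.60 ± 0.63 (SE, edgeR adjusted p = 0.231). Dpys stood at 164, 265 and 224 CPM, a difference of 0.63 ± 0.27 (SE, edgeR adjusted p = 0.271), which passed without old female 3 (log2 difference 1.02, edgeR adjusted p = 0.0301). For Aadat, Nectin1 and Acsl1 the differences were 0.40 ± 0.24, 0.24 ± 0.15 and 0.15 ± 0.31 (SE). Corylin males rest on 2 liver libraries, numbered 2 and 3, and by the library names male 2 in liver and male 2 in kidney are different animals. The 2 liver libraries differ widely, such as 1212 and 396 CPM for Acsl1, whose log2 difference from old males was -0.53 ± 0.36 (SE, edgeR adjusted p = 0.603). Without corylin male 2 Acsl1 and Nectin1 passed as lower (log2 differences of -1.63 and -0.84, edgeR adjusted p = 0.00918 and 0.0126), a fit in which the lone animal left is taken to vary as much as animals elsewhere in the fit.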

How the data were processed

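Per the labels' protocols, TRIzol RNA went into TruSeq Stranded mRNA libraries. The submitters' processing notes name HISAT2 2.1.0, featureCounts 2.0.1, fastp 0.20.0 and FastQC 0.11.9 as tools and GRCm38 (mm10) as build. Neither annotation release nor strand setting is given in the sources used here. Each tissue's deposited table holds the raw count of every gene, TPM values made by the authors, and log2 fold changes with p-values from the authors' own comparisons, whose test is not given in the sources used here. Of 54 samples 53 libraries, from 18 animals by their library names, were analysed, and liver of corylin male 1 was not analysed here. No 2 libraries held the same values.

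Genes were kept by filterByExpr (minimum count 10, minimum total 15). All 6 groups of a tissue entered 1 robust quasi-likelihood fit with TMM scaling (edgeR 4.0.16 in R 4.3.3), so they share 1 estimate of the spread, and the script was tested on simulated data. Each comparison's p-values were adjusted by Benjamini-Hochberg across every tested gene, with 0.05 as threshold. The prior count of log2 CPM was 2. Intervals are approximate 95% intervals from the SE by the normal distribution, and they are somewhat too narrow for groups this small. P-values set a group difference against the spread between animals, which the fit estimates over all 6 groups and with the help of the other genes. Named genes are the 5 members, per pathway list up to 4 genes with the smallest adjusted p in aged female kidneys and up to 2 that passed between the sexes on corylin, per marker list up to 2, and the genes with the most similar pattern of average log2 CPM of at least 1. The near-copies of members (Bhmt1b, Bhmt2, Acsl3 to Acsl6 and Nectin2 to Nectin4) are also named. The exceptions, chosen after their values were seen, are Upb1, Tdo2, Ido1, Kap and Pdk4. The gene closest to Dpys in deviations from the group means is not reported here.

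The members and all gene lists were chosen with earlier results of these data known. Members have no test in the kidney age comparisons that chose them, nor in kidney corylin against old, which shares the old libraries, although the fits were planned for both. DESeq2 1.42.0, limma voom (limma 3.58.1), another normalization, no filter, the library letter, the replicate number and leaving out each library were the alternatives. The letter in the library names, B in 14 and R in 4 kidney libraries, has no stated meaning. All young libraries carry B.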

Additional observations from a re-analysis of the deposited data

How the results depend on the processing

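The number of genes past the threshold, over the whole table, moved by more than 1.5 times in many settings, and the cause was not tested. The order in each series below is kidney age in males (19 genes), kidney sex difference of the age effect (16), kidney corylin in females (10), kidney corylin in males (12), kidney sex difference of the corylin effect (1), then liver age in females (1405), liver age in males (32), liver sex difference of the age effect (0), liver corylin in females (23) and liver corylin in males (9). DESeq2 called 233, 345, 212, 84, 60, 2405, 948, 133, 568 and 134. With the letter of the library names as a term, the kidney counts were 2, 75, 31, 23 and 4, and the liver counts after age in females were 21, 41, 146 and 15. Without a filter on low counts they were 64, 81, 36, 14 and 9 in kidney and 793, 60, 12, 53 and 19 in liver. Limma voom called 2, 8, 12, 11 and 0 in kidney and 819, 21, 0, 11 and 14 in liver. With 1 library left out at a time the counts ran from 1034 to 2260 for kidney age in females (1863), 1 to 30, 0 to 212, 2 to 117, 2 to 11 and 1 to 31 for the other kidney comparisons in the order given, 583 to 937 for kidney females against males on corylin (1156), and 256 to 1531, 0 to 39, 0 to 27, 0 to 543 and 4 to 1533 for liver.

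Same-numbered kidney libraries of different groups had deviations that correlated at -0.30 to 0.36 (median 0.03), with 13 of 45 pairs over 0.1. Differently numbered libraries correlated at -0.45 to 0.51 (median 0), with 15 of 90 pairs over 0.1. Whether the labelled replicate numbers mark anything shared between the groups was not tested. With the replicate number as a block the counts were 44, 132, 51, 30 and 2 in kidney and 1726, 58, 20, 33 and 13 in liver, and Bhmt passed between the sexes on corylin (log2 difference -1.70, edgeR adjusted p = 0.0341) and with age in female liver (-2.37, edgeR adjusted p = 0.0306).

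Of the members' values under all alternatives 809 kept their call or, where untested, stayed within the replicate spread, 12 with no test moved by more than the spread, 10 passed only under the alternative, 18 no longer passed and 10 tested values changed sign. Each of these 10 came from leaving out 1 library in liver, of a value that did not pass: Bhmt with age in males (-0.06 to 0.74), Acsl1 in the sex difference of the age effect (-0.31 to 0.12), Acsl1 on corylin in females (-0.06 to 0.37), and on corylin in males Dpys (-0.40 to 0.51), Bhmt (-0.60 to 0.22), Aadat (-0.85 to 0.21) and Acsl1 (-1.63 to 0.06). Among untested kidney values the sum of Bhmt and Bhmt2 counts had the other sign from Bhmt with age in males (-0.33 against 0.52). It also did in the sex difference of the corylin effect (-0.03 against 0.54). Most of these counts are those of Bhmt2, so this says little of Bhmt itself. Aadat on corylin in males (-0.04) was 0.01 without corylin male 1 and 0.02 by the authors' TPM. In kidney, the Dpys age difference in females was -4.10 without old female 3. By group means of the authors' TPM the age differences in male kidney were 0.62 for Acsl1, 0.71 for Nectin1 and -0.72 for Aadat. Aadat with age in female liver no longer passed without a filter (edgeR adjusted p = 0.0517) or with limma voom (0.0519). The low counts of Dpys and Bhmt in old female kidneys limit the precision of their ratios, and intervals cover these animals only.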
